A study of Mus musculus with 3 samples.

Results

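The 10 genes described here were immediate early genes, listed by name (Fos, Fosb, Jun, Junb, Jund, Egr1, Ier2, Dusp1, Zfp36 and Btg2) and not by any measured value, out of 27998 genes in the count matrices. All 10 had UMIs (unique molecular identifiers, 1 for each captured transcript) in every library. The data were single-cell RNA-seq of bone marrow cells of C57BL/6 mice sorted for the surface protein CD133, which the study calls endothelial-like cells, in 3 libraries of cells pooled from 3 mice each. The control and young libraries came from mice labelled 3 months old, and no genotype or treatment is given that sets them apart. The old library came from mice labelled 27 months old, while the text of the series gives 18.5 months and calls the cells intestinal. Each group was 1 library, so no comparison between libraries has a replicate check and no p-value is given. Intervals are exact 95% intervals that cover counting error only, and age, mouse, sorting and handling cannot be told apart.

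Immediate early genes are transcribed within minutes of a stimulus such as a growth factor, a cytokine or mechanical stress, without new protein synthesis, and their transcripts decay quickly. Jun and Fos proteins pair into the transcription factor AP-1, whose subunits in neutrophil precursors act in differentiation and in the response to inflammation. Other members close the response: Dusp1 is a phosphatase that inactivates MAP kinases, Zfp36 (tristetraprolin) marks AU-rich transcripts for decay, and Btg2 slows proliferation and recruits the deadenylation machinery. The genes can also respond to tissue dissociation and sorting.

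After filtering, 9780 control, 7378 young and 9681 old cells remained, with 74708327 to 119588365 UMIs in a library and medians of 9560.5 to 12690 UMIs in a cell. Markers of neutrophil precursors (Mpo, Elane, Prtn3, Ctsg) summed to between 9621 and 13525 CPM (UMIs per 1000000 UMIs), and those of later neutrophil precursors (Ltf, Camp, Ngp, Mmp8, Retnlg) to between 98109 and 113922 CPM. The endothelial markers Cdh5, Kdr, Emcn, Tek and Vwf summed to 0.151 to 0.897 CPM, so the cells carried neutrophil precursor markers and almost no endothelial ones. The young library stood apart in holding 756 cells (10.2%) with markers of another blood cell type, against 106 control (1.08%) and 86 old cells (0.888%). Libraries shared 120 to 161 cell barcodes in a pair, at most 2.91% of the barcodes of a library.

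Of the genes, 4 (Ier2, Jun, Junb and Jund) have a single exon in their longest transcript in the GENCODE M21 annotation of GRCm38. Jun lies at chr4:95049034-95052222, Junb at chr8:84974484-84978718 and Jund at chr8:70698949-70700616, with Ier2 also on chromosome 8, at chr8:84661331-84662852. Fos lies at chr12:85473890-85477273. Other annotated genes on the opposite strand overlap Jun (Junos), Junb (Prdx2), Jund (Gm11175) and Zfp36 (Gm44710), and genes on both strands overlap Dusp1. The handling of strand in counting is not given in the sources used here, so whether reads of such neighbours entered the counts is not known from them.

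Promoters of 8 members were found in the RefSeq table for GRCm38.p6, which holds 250 bases before and 50 after each start. The last 170 bases before the start of Jund lie there at chr8:70697569-70697738. Its start in RefSeq thus differs from the GENCODE start given above, and the entry is not the sequence next to that start. On the minus strand, the GENCODE genes of Dusp1 and Zfp36 begin at chr17:26562128 and chr7:28380253, upstream of their RefSeq starts. Starts of single GENCODE transcripts were not compared. The last 170 bases before the start are shown for 4 members with different patterns below, 5′ to 3′ on the strand of the gene. Dusp1 and Btg2 moved together across the bands of Mpo described below, as did Zfp36 (not shown), while Jun and Fos went apart between libraries. Capitals mark matches to TGACGTCA, the cAMP response element, or to TATAAA, the TATA box.
Fos (chr12:85473720-85473889, plus strand): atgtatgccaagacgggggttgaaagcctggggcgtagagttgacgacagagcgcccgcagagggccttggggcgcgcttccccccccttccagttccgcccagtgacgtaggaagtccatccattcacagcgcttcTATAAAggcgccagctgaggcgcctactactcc
Jun (chr4:95052223-95052392, minus strand): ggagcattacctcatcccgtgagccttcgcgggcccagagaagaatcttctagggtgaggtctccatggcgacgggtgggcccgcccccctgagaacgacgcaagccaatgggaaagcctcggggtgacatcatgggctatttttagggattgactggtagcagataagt
Dusp1 (chr17:26508473-26508642, minus strand): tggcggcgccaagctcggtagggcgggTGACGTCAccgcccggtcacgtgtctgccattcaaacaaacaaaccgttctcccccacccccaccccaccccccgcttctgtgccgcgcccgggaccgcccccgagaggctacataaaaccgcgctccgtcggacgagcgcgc
Btg2 (chr1:134079156-134079325, minus strand): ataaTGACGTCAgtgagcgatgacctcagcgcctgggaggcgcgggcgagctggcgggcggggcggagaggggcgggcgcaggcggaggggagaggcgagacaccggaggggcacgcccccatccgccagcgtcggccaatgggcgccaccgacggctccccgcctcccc

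TGACGTCA, which reads the same on both strands, was found in Dusp1 and Btg2 among the 8 members and in 1.79% of the 32851 promoters in the table. Zfp36, which moved across the bands of Mpo with Dusp1 and Btg2, had no match to it. TATAAA was found in Fos, before the start, and in Junb, in the bases after the start, in each on the strand of the gene. With both strands searched, it was found in 13.6% of all promoters. The CArG box of serum response factor was found in Zfp36 and in 1.63%, and TGACTCA, an AP-1 site, in none of the 8 members and in 5.202%. Other spellings of an AP-1 site were not searched. No 2 of the motifs overlapped in a member. A match is a description of the letters in this window and not a binding site.

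The genes that set the old library apart were those of the Jun family, the AP-1 subunits that can pair with each other or with Fos. Jun stood at 3.12 CPM in the control, 5.27 in the young and 10.1 in the old library. It was 1.92 times higher in the old than in the young library (log2 ratio 0.94, 0.78 to 1.11) and 3.26 times higher than in the control (1.70, 1.52 to 1.89). The old library lay above both libraries from 3-month-old mice, and the control lay below the young one.

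Junb, an AP-1 subunit with a known role in restraining myeloid proliferation, stood at 34.4 CPM in the control, 38.1 in the young and 74.7 in the old library. Its log2 ratio of old to young was 0.97 (0.91 to 1.03), a fold of 1.96, and that of old to control 1.12 (1.06 to 1.18). The control and young libraries were close to each other, with a log2 ratio of −0.14 (−0.22 to −0.07). Among all kept cells 25.6% of control, 27.9% of young and 50.7% of old cells had a Junb UMI, and after thinning each cell to 3000 UMIs these shares were 9.26%, 10.6% and 19.6%.

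Jund, the most steadily expressed Jun protein in many tissues, stood at 12.2 CPM in the control, 13.8 in the young and 34.1 in the old library. It showed the largest old to young ratio of the 10 genes, 2.47-fold (log2 ratio 1.30, 1.20 to 1.40), and stood 2.79 times above the control (1.48, 1.39 to 1.58). In the young library 35.4% of its UMIs came from the cells with other blood markers, which held 9.06% of all UMIs. Without those cells Jund was 9.80 CPM in the young library and the old to young log2 ratio was 1.79.

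**Figure D1:**
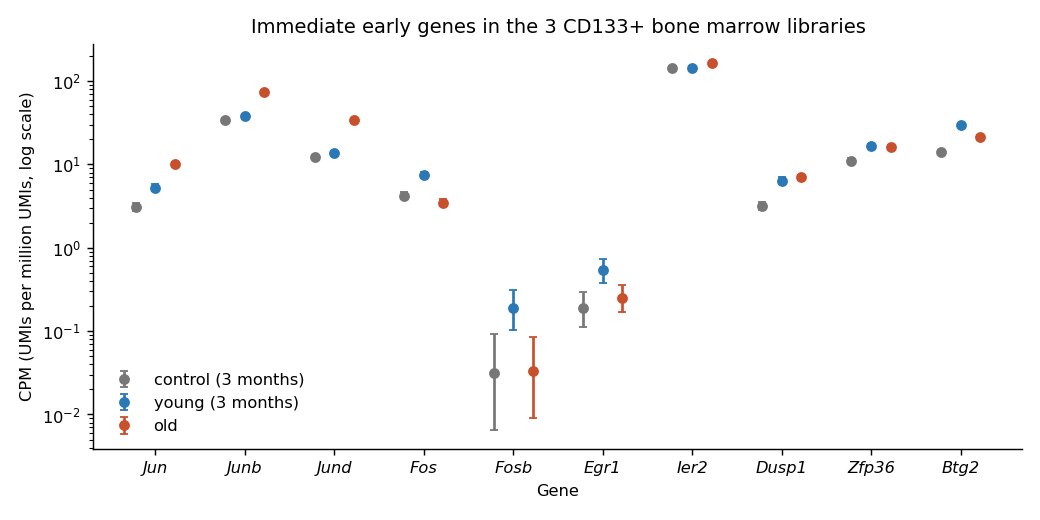
Level of each immediate early gene in the control (grey), young (blue) and old (orange) libraries, in CPM on a log scale, with exact 95% Poisson intervals of the count. For Jun, Junb and Jund the old library stands highest, and Fos, Fosb and Egr1 stand highest in the young library.

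Against the young library, the Fos family and Egr1 went the other way in the old one. Fos stood at 4.20 CPM in the control, 7.40 in the young and 3.47 in the old library, a log2 ratio of old to young of −1.09 (−1.28 to −0.91). It was also lower in the control than in the young library (−0.82, −1.01 to −0.63), so the young library lay above both others, and old and control differed by −0.27 (−0.48 to −0.07). Cells with other blood markers held 23.1% of the Fos UMIs of the young library. Without them the log2 ratio of old to young was −0.87.

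Fosb, a Fos relative seen in strong or repeated stimulation, had 3 UMIs in the control, 14 in the young and 4 in the old library. Egr1, a zinc finger factor that is among the first genes to respond to growth factors, had 18, 40 and 30 UMIs, or 0.188, 0.535 and 0.251 CPM. Both were near the limit of detection in all 3 libraries. The log2 ratio of old to young was −2.49 (−4.55 to −0.82) for Fosb and −1.09 (−1.83 to −0.37) for Egr1, and the intervals of old to control included 0 for both. With each cell thinned to 3000 UMIs the old to young ratio of Egr1 was −0.07, from 8 young and 9 old cells with a UMI.

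Ier2, a small nuclear protein of the early response, carried 63.5% of the members' UMIs in the control, 55.2% in the young and 49.7% in the old library. It was nearly level, at 143 CPM in the control, 145 in the young and 165 in the old library. The log2 ratio of old to young was 0.19 (0.16 to 0.22). A sum over the members therefore follows Ier2 for a large part, and stood at 226, 263 and 332 CPM, a log2 ratio of old to young of 0.34 (0.32 to 0.37). Without Ier2 that ratio was 0.51.

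With all kept cells, the genes that dampen the response were lowest in the control library, as was every other member except Fos. For some of the others this was not firm. Without the cells with other blood markers, Jund was 12.0 CPM in the control and 9.80 in the young library. The control to young interval of Ier2 included 0 (−0.05 to 0.02), and Fosb had 3 UMIs in the control and 4 in the old library. Btg2 stood at 14.0 CPM in the control, 29.4 in the young and 21.5 in the old library, and the control was 2.103 times below the young (log2 ratio −1.07, −1.17 to −0.97). Dusp1 stood at 3.19, 6.41 and 7.01 CPM, with a log2 ratio of control to young of −1.01 (−1.22 to −0.80). Zfp36 stood at 11.1, 16.5 and 16.0 CPM, with a log2 ratio of control to young of −0.57 (−0.69 to −0.45). Old and young differed little in Dusp1 (0.13, −0.04 to 0.29) and Zfp36 (−0.05, −0.15 to 0.06), and Btg2 was lower in the old library by −0.46 (−0.54 to −0.37). Of the Btg2 UMIs of the young library 27.7% came from the cells with other blood markers, and without them the old to young log2 ratio was −0.13. With cells high in Retnlg and Mmp8 also left out, Btg2 stood at 20.4 CPM in the young and 14.5 in the old library.

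**Figure D2:**
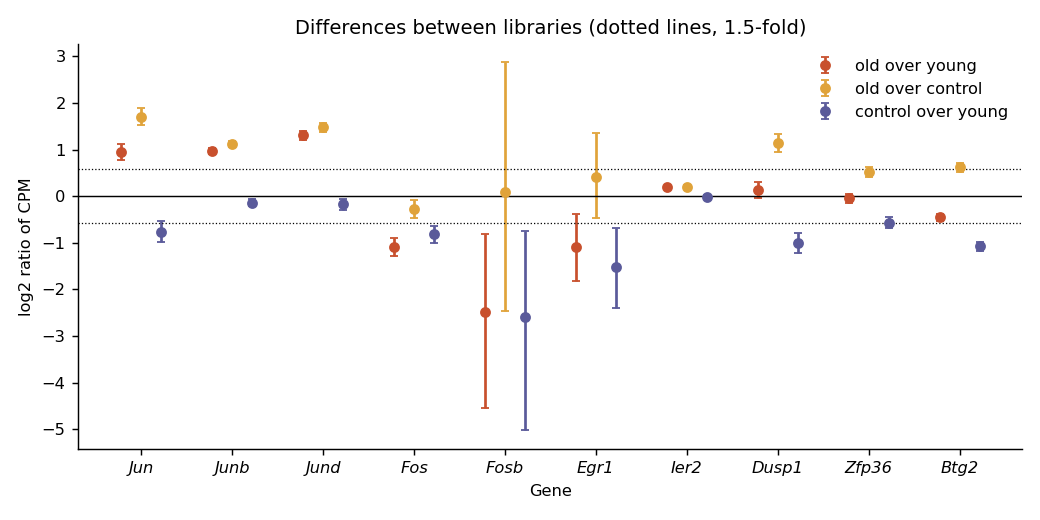
Log2 ratio of CPM for each gene between pairs of libraries, with exact conditional 95% intervals and dotted lines at 1.5-fold. Jun, Junb and Jund lie above the upper dotted line in both comparisons of the old library, and Fos lies below the lower line for old over young and for control over young.

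In place of a test, genes that reached 10 CPM in one or the other library were counted where they differed by 1.5 times or more. Of the 10 members, 6 reached that level for old against young, and 3 (Jun, Junb and Jund) were higher and 0 lower, where 4.36% of all 5761 genes were higher and 14.7% lower. For old against control 6 reached it, with 4 higher (Jun, Junb, Jund and Btg2) and 0 lower, against 5.37% and 8.78% of 5470 genes. For control against young 5 reached it, with 0 higher and 1 lower (Btg2), against 1.59% and 6.62% of 5728 genes. Jun reached 10 CPM in the old library alone, where it was highest, so it could not be counted as lower. Fos, Fosb and Egr1, which were lower in the old than in the young library, were kept out by the same minimum. The counts and medians over the members that reached it are therefore a description and give no support of their own. Junb and Jund were above 10 CPM in all 3 libraries, and stood between the percentiles 98.1 and 99.01 of all genes tested in both comparisons of the old library. The comparisons share libraries. The median log2 ratio of all genes was −0.15 for old over young, −0.06 for control over young and −0.08 for old over control. The median over the members tested was 0.57, −0.18 and 0.87 in the same order.

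Mpo, the myeloperoxidase of early neutrophil granules, falls as neutrophil precursors mature, so cells without other blood markers were placed in 6 bands of Mpo UMIs per 10000 UMIs of the cell. The old library stood above the young one for Jun, Junb and Jund in 6 of 6 bands. At the lowest Mpo (under 1), Jun stood at 3.62 CPM in the control, 2.16 in the young and 14.0 in the old library, a log2 ratio of old to young of 2.70 (1.77 to 3.79). At the highest Mpo (100 or more), with 93 old cells, Jun stood at 0.638, 5.37 and 5.94 CPM, and the old to young interval included 0 (−1.27 to 1.34). The gap in Jun between old and young was widest in the cells with least Mpo. Against the control it was widest at high Mpo, with log2 ratios of 1.95 (1.18 to 2.83) in the lowest band, 3.04 (2.26 to 3.92) in the band of 30 to under 100 and 3.22 (0.83 to 6.52) in the highest, where the control had 2 Jun UMIs.

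Junb and Jund did not close the gap in any band. The old to young log2 ratio of Junb ran from 0.50 (0.14 to 0.84) in the highest band to 1.52 (1.25 to 1.81) in the lowest, and that of Jund from 1.39 in the highest band to 2.11 in the band of 1 to under 3, with every interval above 0. Against the control, Jun, Junb and Jund were likewise higher in the old library in 6 of 6 bands. Of all genes tested, 19.6% were higher in the old than in the young library in all 6 bands and 21.8% were higher than in the control, so the agreement of the bands alone was common among genes. The bands split cells of the same libraries, so the ratios within them describe how the differences lay along Mpo and are no separate support.

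Fos was below the young level in the old library in 6 of 6 bands, with log2 ratios between −1.43 and −0.03 and 4 intervals below 0, where 27.4% of all genes were lower in all 6. Btg2 was lower in the control than in the young library in 6 of 6 bands, by between −1.28 and −0.66, where 23.5% of genes were. Dusp1 changed place with Mpo, but only 2 intervals lay above 0 and 1 below, and the others included 0. It was above the young level in the old library in the 3 lowest bands (0.73, 0.16 to 1.33, at the lowest) and below it in the 3 highest (−0.92, −1.44 to −0.40, in the band of 30 to under 100).

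**Figure D3:**
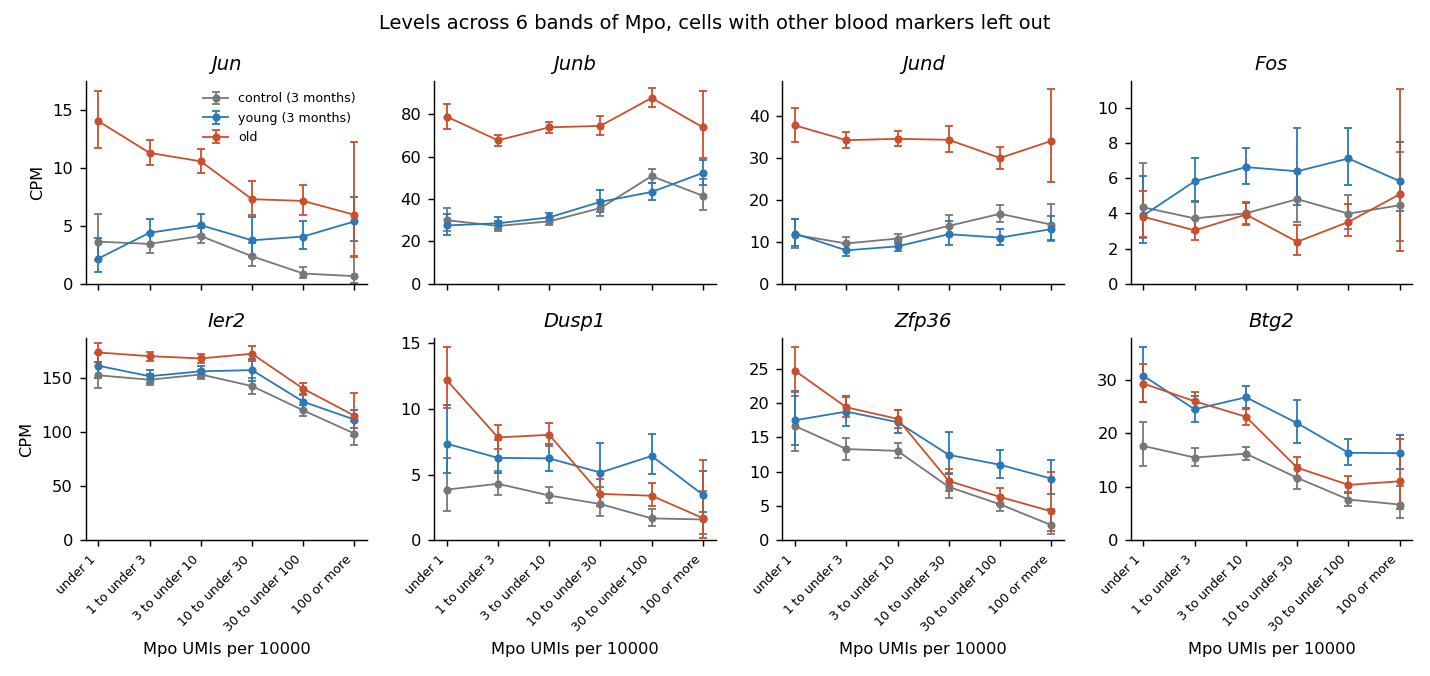
CPM of 8 immediate early genes against Mpo UMIs per 10000 in 6 bands, for control (grey), young (blue) and old (orange) cells without other blood markers, with exact 95% Poisson intervals. The old line lies above the others for Junb and Jund in every band, and Dusp1, Zfp36 and Btg2 fall toward high Mpo in all 3 libraries.

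Along the Mpo axis itself the feedback genes formed a group. Zfp36 stood at 16.7, 17.5 and 24.7 CPM in the lowest band of the control, young and old libraries and at 2.23, 9.01 and 4.25 CPM in the highest, with log2 ratios of lowest to highest of 2.90, 0.96 and 2.54. Btg2 had log2 ratios of 1.40, 0.92 and 1.41, and Dusp1 of 1.28 (with an interval from −0.24 in the control), 1.08 and 2.84. These genes were higher in cells with little Mpo in each library. Ier2 followed with ratios of 0.63, 0.53 and 0.59.

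Junb did not share that direction. It was lower at low Mpo in the young library (27.5 against 52.3 CPM, log2 ratio −0.93, −1.24 to −0.63) and in the control (−0.47, −0.84 to −0.10), and level in the old library (0.10, −0.23 to 0.43). Jun went in opposite directions: it was lower at low Mpo in the young library (−1.31, −2.50 to −0.26) and higher in the old (1.24, 0.16 to 2.58) and in the control (2.50, 0.40 to 5.68), from 2 to 34 UMIs in the highest bands. Of members at 10 CPM or more in either band, 3 of 5 were higher at low Mpo in the control, 2 of 5 in the young and 5 of 7 in the old library, where 12.4%, 10.1% and 12.5% of all genes were. Lower at low Mpo were 0, 1 (Junb) and 0 members, where 55.9%, 56.2% and 58% of all genes were. Zfp36 in each library, Btg2 in the control and Jun and Dusp1 in the old library reached 10 CPM only through the lowest band, where they were high, so their place in these counts is no support.

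Over the 18 points of library and band, which share their library, depth and cell makeup, the levels of Junb and Jund had a Pearson r of 0.93. Those of Dusp1, Zfp36 and Btg2 had r between 0.90 and 0.93 with each other. Fos had an r of −0.40 with Junb and −0.61 with Jund, and after centring each library on its own mean these were 0.29 and −0.01, so the negative values did not hold within libraries. Centred, Junb and Jund had an r of 0.71, and Jun had −0.35 with Junb and −0.45 with Jund, against 0.58 and 0.61 before. The 5 genes outside the list whose log2(CPM + 1) was most like that of the summed members over these points, among 5314 genes, were Sri (r = 0.96), Wfdc17 (0.96), Il1f9 (0.96), Stfa2l1 (0.95) and Slc16a3 (0.94). After centring each library on its own mean they were Glrx (0.97), Cmpk2 (0.97), Asb7 (0.97), Cdc42se1 (0.96) and Ncf1 (0.96).

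Among cells without other blood markers, the summed members stood highest in the cells with most late neutrophil transcripts. Retnlg and Mmp8, genes of late neutrophil granules and of maturing neutrophils, were used to place cells in 4 bands without any member. Cells with 100 or more of their UMIs per 10000 made up 1.72% (1.47 to 1.99) of the control, 2.66% (2.28 to 3.07) of the young and 7.47% (6.95 to 8.02) of the old cells, or 166, 176 and 717 cells. In them the summed members stood at 715, 706 and 945 CPM, against 211, 239 and 278 CPM in cells with under 1. Their median depth was 4342.5, 4600.5 and 6280 UMIs, against 10758, 10868.5 and 12256.5. Mpo in these late cells stood at 661, 616 and 326 CPM, against 36.2, 40.4 and 49.2 CPM in the lowest Mpo band. The lowest Mpo band is thus not the set of cells latest by Retnlg and Mmp8.

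Of the members with UMIs in both outer bands, Dusp1 had the largest ratio of last to first band in each library. It went from 1.88 to 64.0 CPM in the control, from 5.34 to 55.9 in the young and from 2.53 to 82.8 in the old library. Junb went from 34.2 to 178 CPM in the control, from 42.1 to 135 in the young and from 57.5 to 335 in the old library. Fos went from 3.38 to 52.9, from 6.91 to 30.5 and from 4.22 to 14.5 CPM. In the late cells Junb was thus highest and Fos lowest in the old library. Of members at 10 CPM or more in either band, 7 of 7 in the control, 8 of 8 in the young and 7 of 8 in the old library were at least 1.5 times higher in the last band than in the first, where 16.8%, 16.8% and 16.7% of all genes were. The exception in the old library was Ier2, at 1.22 times. Fos and Dusp1 in each library, Zfp36 in the control and old, Jun in the young and old and Jund in the young reached 10 CPM only through the last band, where they were high, and could not be counted as lower. Junb and Btg2 were above 10 CPM in both outer bands of each library.

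Within the late cells the old library stood above the young one in Jun (log2 ratio 1.58, 0.89 to 2.35), Junb (1.31, 1.05 to 1.57) and Jund (1.12, 0.71 to 1.57), and below it in Fos (−1.07, −1.71 to −0.40). The same directions held in all 4 bands for these 4 genes, where 18% of all genes were higher and 29.1% lower in all 4. Only 98 old and 312 young cells were under 1, against 2584 control cells, so the bands were filled unequally. When cells at 10 or more of Retnlg and Mmp8 and cells with other blood markers were left out, the old to young log2 ratios of Jun, Junb and Jund were 0.85, 0.89 and 1.66. Those of old to control were 1.27, 0.88 and 1.31. Dusp1, Zfp36 and Btg2 were then 0.32, 0.09 and 0.20 in old over control, under the limit of size, against 1.14, 0.52 and 0.62 with all cells. Dusp1 was −0.60 in old over young, against 0.13 with all cells. Btg2 was lower in the old than in the young library in each band of Retnlg and Mmp8. Its old to young log2 ratio was −0.16 (−0.99 to 0.61) under 1 and −0.51 (−0.62 to −0.39) at 1 to under 10. It was −0.32 (−0.55 to −0.08) at 10 to under 100 and −0.40 (−0.69 to −0.09) in the late cells.

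**Figure D4:**
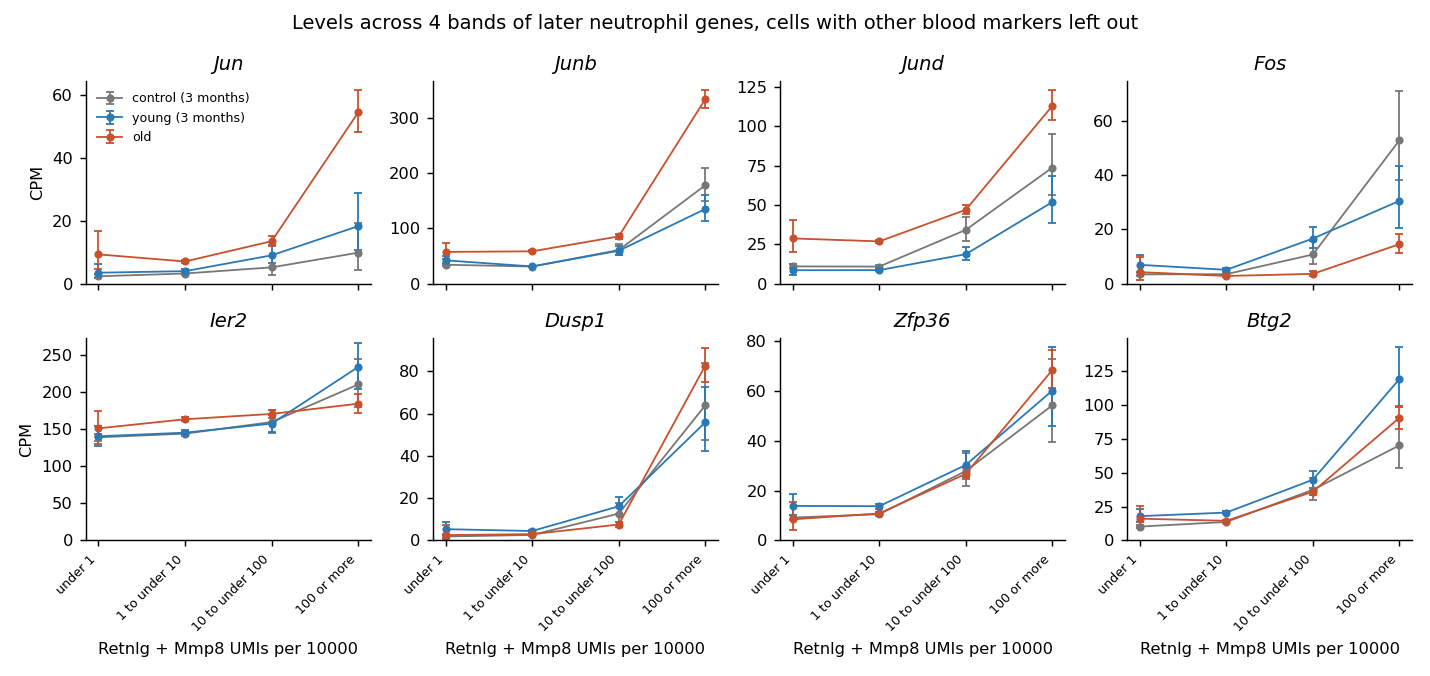
CPM of 8 immediate early genes against the summed Retnlg and Mmp8 UMIs per 10000 in 4 bands, for control (grey), young (blue) and old (orange) cells without other blood markers, with exact 95% Poisson intervals. All 8 genes stand highest in the last band of each library, where the old library is highest for Jun, Junb, Jund, Dusp1 and Zfp36 and lowest for Fos and Ier2.

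Cycling cells, taken as those with at least 5 UMIs per 10000 of 10 mitotic genes such as Mki67 and Top2a, had less of the members than cells with under 1. The sum was 215 against 351 CPM in the control, 234 against 393 in the young and 299 against 495 in the old library. In each library 6 members were at least 1.5 times lower in cycling cells, of 7 at 10 CPM or more in the control, 8 in the young and 7 in the old library, where 8.25%, 9.63% and 9.31% of all genes were. Dusp1 in each library, Fos in the control and young, Jun in the young and old, Zfp36 in the control and Jund in the young reached 10 CPM only in the non-cycling cells, where they were high. Non-cycling cells had fewer UMIs, with medians of 5345.5, 5106 and 8718 against 10332, 11095.5 and 13769.5. The old library stood above the others in the Jun family among cycling cells too, with Junb at 62.4 CPM against 30.8 in the control and 32.1 in the young library.

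The cells with other blood markers had levels of their own. In the young library, the 373 cells with monocyte markers had 31.6 CPM of Fos (25.9 to 38.3) and 84.9 of Junb. The 103 cells with dendritic cell markers had 238 CPM of Btg2 (204 to 276) and 108 of Jund. The 69 cells with NK and T cell markers had 150 CPM of Jund (122 to 183) and 3.06 of Fos (0.370 to 11.05). These Btg2 and Jund levels lay above those of the young late cells, at 119 and 51.9 CPM. All cells with other blood markers together held 35.4% of the Jund, 28.6% of the Fosb (4 of 14 UMIs), 27.7% of the Btg2 and 27.5% of the Egr1 UMIs of the young library, and 7.58% of those of Ier2, the one member below their share of all UMIs.

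Within single cells the members were sparse. No doublet caller was run, so a barcode that held 2 cells was left out only where it passed the upper UMI limit or, in the bands and here, carried other blood markers. At 3000 UMIs and without the cells with other blood markers, a cell held a mean of 0.699 member UMIs in the control, 0.777 in the young and 1.09 in the old library. UMIs of 3 or more members were found in 1.31%, 1.78% and 5.40% of cells, and of 5 or more in 4, 5 and 42 cells. Old cells with a Jun UMI had a Junb UMI in 37.8% of cases (32.3 to 43.5), against 19.0% (18.2 to 19.8) of those without. The young shares were 10.9% (5.34 to 19.1) and 9.42%, and the control shares 8.60% (3.79 to 16.2) and 9.15%, from 92 and 93 cells with Jun. For Jun with Junb the intervals lay apart in the old library and overlapped in the others, and cells of 1 library are not replicates. Other pairs lay apart outside the old library too. In the control these were Fos with Junb (17.6% against 9.04%), Fos with Dusp1 and Junb with Jund. In the young library they were Fos with Dusp1 (5.47% against 1.86%) and Junb with Ier2. The remaining pairs looked at overlapped in the control and young libraries. Late cells were kept here and made up 7.47% of the old, 2.66% of the young and 1.72% of the control cells. In the old library they held 54.6 CPM of Jun and 335 of Junb, and their part in these shares was not tested. No cell type known to lack these genes was at hand, so the part of free RNA was not tested.

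Among the other genes of the response, chosen as 5 lists, the old library was compared with the young one in the same way. Over all genes 4.36% were higher and 14.7% lower in old over young, 5.37% and 8.78% in old over control, and 1.59% and 6.62% in control over young, and the counts below are to be read against these shares. Genes named beyond those at 50 CPM or more with the highest or lowest ratios were named after their values were seen. Of 18 other AP-1 and bZIP subunits, 8 were at 10 CPM or more. Of these, 0 were higher and 2 lower (Creb1, and Jdp2, which was below that level in the old library). Atf4, which drives the amino acid stress response, stood at 67.8 CPM in the control, 43.9 in the young and 51.9 in the old library, and Mafg, a small Maf protein, at 98.7, 77.5 and 84.7 CPM. Of 20 other early transcription factors, 19 were in the files and 7 at that level, with 1 higher (Klf2) and 1 lower (Myc, below that level in the old library). Klf2, a factor of leukocyte quiescence, stood at 51.8, 65.6 and 115 CPM, and Cebpb (350, 316 and 405 CPM) and Klf6 (67.5, 57.3 and 62.1 CPM) stayed within the limit.

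Of 31 other regulators and feedback inhibitors, 15 were at 10 CPM or more, with 5 higher (Ier3, Gadd45a, Gadd45g, Sgk1 and Pim1) and 4 lower (Zfp36l2, Tob2, Rhob and Cd69) in old over young. Pim1, a kinase induced by cytokine signalling, stood at 100 CPM in the control, 30.9 in the young and 146 in the old library. Gadd45g, a stress-induced partner of the kinase Map3k4, stood at 40.2, 24.4 and 62.1 CPM. Zfp36l2 (39.7, 62.9 and 36.9 CPM) and Btg1 (64.3, 107 and 79.1 CPM), relatives of Zfp36 and Btg2, were highest in the young library. The relatives under 10 CPM differed from this. Zfp36l1 (0.271, 2.66 and 6.06 CPM) was highest in the old library and Btg3 (3.24, 2.81 and 2.77 CPM) in the control. Nfkbia, the inhibitor of NF-κB, was at 254, 197 and 274 CPM. Of those called in old over young, Ier3 and Sgk1 were under 10 CPM in the young library and Tob2 and Cd69 in the old. These could not be counted the other way. For old over control 14 were at that level with 4 higher (Ier3, Gadd45a, Gadd45g and Sgk1) and 1 lower (Dusp6). For control over young 15 were, with 2 higher (Gadd45g and Pim1) and 3 lower (Zfp36l2, Btg1 and Cd69). Of 23 MAP kinase and serum response factor genes upstream, 14 were at that level, with 0 higher and 3 lower (Creb1, Mapkapk2 and Ets1) in old over young, 0 and 1 (Mapkapk2) in old over control, and 0 and 0 in control over young. Mapk3 (ERK1) stood at 92.0, 95.2 and 118 CPM, and Ets1 at 54.3, 61.5 and 40.6 CPM. In control over young, 1 AP-1 subunit was higher (Atf4) and 0 lower, and 0 early factors were higher and 1 lower (Irf1). In old over control, 0 AP-1 subunits were higher and 1 lower (Jdp2), and 1 early factor was higher (Klf2) and 1 lower (Myc). Irf1 and Cd69 were under 10 CPM in the control, so in control over young they could not be counted as higher. In old over control, Jdp2, Myc and Dusp6 were under 10 CPM in the old library and Sgk1 in the control, and could not be counted the other way.

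Heat shock genes, which also respond to dissociation, lay lower in the old library. Of 14, 9 were at 10 CPM or more and 0 were higher and 8 lower in old over young, where 4.36% of all genes were higher and 14.7% lower, with a median log2 ratio of −0.68 against −0.15 over all genes. For old over control 6 of 8 were lower and 0 higher, where 8.78% and 5.37% of all genes were. For control over young 1 of 9 was higher (Hspd1) and 1 lower (Hspa1a). Hspa1a reached 10 CPM only in the young library, so it could not be counted as higher in either comparison with that library. Hspe1, a mitochondrial co-chaperonin, stood at 158 CPM in the control, 114 in the young and 50.3 in the old library, and Dnaja1, a cytosolic co-chaperone, at 218, 254 and 139 CPM. Hspa1a and Hspa1b, the inducible Hsp70 genes, were singled out after their values were seen. They stood at 10.2 and 7.98 CPM in the young library and at 0.375 and 0.344 CPM in the control and 0.176 and 0.192 CPM in the old. Without the cells with other blood markers they were still at 8.63 and 7.24 CPM in the young library. The inducible Hsp70 genes, Fos, Fosb and Egr1 were therefore highest in the young library, and the Jun genes in the old one.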

How the data were processed

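Chromium 3′ libraries of sorted CD133+ bone marrow cells were aligned by the authors with STAR to mm10 and counted with Cell Ranger 2.1.0 (submitters' processing notes). The deposited matrices hold raw, not normalized, UMI counts of 27998 genes. Cells with at least 200 genes, at most 20% mitochondrial UMIs and a UMI count within the 5th to 95th percentile (control alone, young and old together) were kept. A cell carried markers of another blood type with at least 3 genes of a marker list and 10 of its UMIs per 10000. CPM (UMIs per 1000000) were computed from counts summed over the cells of a library or band. The 95% intervals were Clopper-Pearson for shares of cells, conditional binomial where 2 sums were divided, and exact Poisson otherwise. With 1 library per group no test was made, and differences of 1.5 times or more were counted for genes that reached 10 CPM in one of the compared libraries. The deepest and shallowest libraries held 119588365 and 74708327 UMIs. The counting and its intervals were tested on simulated counts drawn with Poisson error alone, so spread between cells or mice was not tested. All 10 members are named, and of each list the 2 highest and 2 lowest ratios among genes at 50 CPM or more. The members and lists were chosen with earlier results of these data known. Positions come from GENCODE M21, in which 27645 gene identifiers were found. Alternatives covered the cell filter, other blood cells, depth, scaling, thinning to 3000 UMIs and the bands. Python 3.11.15, scipy 1.17.1 and numpy 2.4.6 were used.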

Additional observations from a re-analysis of the deposited data

Results flagged for a closer look

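Jun differed in direction along Mpo between libraries. From the highest to the lowest Mpo band its log2 ratio was −1.31 in the young library, 1.24 in the old and 2.50 in the control, with each interval on 1 side of 0. The difference between libraries was not tested, and with 1 library per group it cannot be told apart from differences between libraries of other origin.

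Cells below the lower limit of the UMI count were used in no comparison other than the alternative without UMI trimming. In the young and old libraries they had more of the immediate early genes than in the control. The limit was set on the control alone and on young and old together, with lowest kept counts of 3423, 3827 and 3831 UMIs in the control, young and old. Cells with other blood markers were not left out of these sums. The summed members stood at 663 CPM in the 804 young cells and 839 CPM in the 136 old cells below the limit, against 409 CPM in 530 control cells. The kept cells stood at 263, 332 and 226 CPM in the same order. Below the limit Junb stood at 135 CPM in the young, 298 in the old and 100 in the control library.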

How the results depend on the processing

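No paired analysis was possible because each group is 1 library. No member past 1.5 times changed sign in an alternative. Within that limit, Dusp1 in old over young (0.13) went to −0.60 without late and other blood cells and to 0.62 thinned, past the limit both ways, and Fosb in old over control (0.10) to −1.60 without late and other blood cells. Zfp36, Junb, Jund, Ier2 and Fos each changed sign in 1 comparison without passing the limit. The old over young sum (log2 0.34) was 0.27 with no UMI trimming, 0.42 without other blood cells, 0.63 as UMIs per cell, 0.49 centred on all genes, 0.38 with Mpo bands weighted equally, 0.51 without Ier2, 0.38 without members under 10 CPM and 0.30 without late and other blood cells, an alternative chosen after seeing the data. In the same order, control over young (−0.22) was −0.27, −0.14, −0.26, −0.16, −0.18, −0.51, −0.17 and −0.11, and −0.28 with thinned cells. Old over control (0.56) was 0.89 as UMIs per cell, 0.63 centred, 0.63 thinned, 0.40 without late cells and 1.02 without Ier2. Old over young had 1 member higher at a minimum of 50 CPM or a limit of 2 times, and 1 lower with no trimming and 3 lower with no minimum. Control over young had 2 lower with no trimming, with percentiles over the 3 libraries, as UMIs per cell and thinned, 0 at 50 CPM and 6 with no minimum. Old over control had 2 higher without late cells and 1 at 50 CPM. Jun, Junb and Jund stayed at least 1.5 times higher in the old library in all 8 alternatives, against young and against control. Fos stayed lower in old than young in all 8. Over the 5 lists, old over young (6 higher, 18 lower, with Creb1 counted in 2 lists) had 3 higher and 8 lower at 50 CPM and 11 lower without other blood cells. Control over young (4 and 5) had 8 lower with no trimming, and 2 lower both without other blood cells and at 50 CPM. Old over control (5 and 10) had 2 and 6 at 50 CPM. The sum over Mpo bands was 0.95 with bands of Elane and 0.30 without Ier2 in the control (0.50). In the young library (0.27) it was 0.41 with bands of Elane, 0.44 with other blood cells kept, 0.39 thinned, 0.45 with no trimming and −0.063 without Ier2. In the old library bands of Elane and the other Mpo edges left under 50 cells in an outer band and were not run. For changes that the depth limits, Fosb had 3 to 14 UMIs and Egr1 18 to 40 in a library. For the other changes the cause was not tested.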

Other observations

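Genes of the same response went different ways in old and young cells. Socs3, a cytokine-induced inhibitor of STAT signalling that was singled out after its values were seen, stood at 2.49 CPM in the control, 0.696 in the young and 7.26 in the old library, and at 2.36, 0.589 and 7.21 CPM without the cells with other blood markers. Klf4 and Atf3, also chosen after their values were seen, stood highest in the young library, at 5.85 CPM (0.563 control, 0.661 old) and 0.602 CPM (0.0417 control, 0.0334 old). Without the cells with other blood markers Klf4 was 0.692 CPM in the young library (0.137 control, 0.101 old) and Atf3 0.250 CPM (0.0315 control, 0.0168 old).

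The summed members moved with depth and with the mitochondrial share of a cell. In quartile 1 of the UMI count of a cell they stood at 293 CPM in the control, 330 in the young and 524 in the old library, and in quartile 4 at 213, 221 and 291 CPM. In quartile 1 of the mitochondrial share they stood at 267, 302 and 461 CPM, and in quartile 4 at 202, 230 and 293 CPM. The old library stood highest in each of these quartiles, and their part in the differences between libraries was not tested. Longest transcripts of Junb and Jund held 62.6% and 67.1% G and C, and the median log2 ratio of genes at 60% or more was −0.09 for old over young.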
